A study of Homo sapiens with 6 samples.

Results

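The BCL2 family decides whether a cell releases cytochrome c from its mitochondria and dies by apoptosis. Transcripts of 10 of its genes were described here in xenograft tumors of WM983-B, an established human melanoma line. The genes were chosen by name, with earlier results of these data known. They were the pro-survival BCL2, BCL2L1, BCL2A1 and MCL1, the effectors BAX and BAK1, and the BH3-only genes BBC3, PMAIP1, BMF and BCL2L11. All 10 were among the 60617 gene identifiers of each count file, and all 10 passed the low-count filter, which left 20423 genes. RNA sequencing covered 6 tumors, 3 from hosts given anle138b systemically and 3 without treatment. The compound is a diphenyl-pyrazole that binds α-synuclein oligomers. The sources used here do not give the host strain, the age of the animals, the dose or the duration, and no label ties a tumor to its own animal, so the p-values below measure the spread between these libraries, which may be technical.

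As background, the pro-survival proteins hold the effectors in check on the outer mitochondrial membrane. BH3-only proteins are made or activated in stressed cells and bind the pro-survival proteins, and some of them act on the effectors directly. Once freed, BAX and BAK1 form pores, and caspases are activated downstream. In the melanocyte lineage the transcription factor MITF is known to drive BCL2 and BCL2A1, and melanomas often depend on BCL2A1, MCL1 and BCL2L1 for survival. RNA levels do not show protein levels, and MCL1, PMAIP1 and BCL2L11 proteins in particular are known to be controlled by degradation.

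The sample titles followed 2 naming patterns, called here the 4-library set (replicates 1 and 2 of each group) and the 2-library set (replicate 3 of each group). The replicate numbers are not from the labels and only name the tumors. What the patterns stand for was not given. Titles of the 4-library set also carry the letter R for treated and L for untreated tumors, so in that set whatever the letter marks and the treatment cannot be told apart. Libraries held 12400782 to 27599159 counts, the 2-library set being the deeper. The first principal component of all tested genes took 53.8% of the variance and separated the sets, and the second took 17% and separated the groups. Untreated replicate 3 stood apart, with 0.543% of counts in genes annotated as miscellaneous RNA against 1.28% to 2.69% in the other libraries, and 3.09% in mitochondrially encoded genes against 1.38% to 2.81%. The summed level of 9 melanoma markers, among them MLANA, PMEL and SOX10, was 14000 to 19000 CPM (counts scaled to library size, TMM-adjusted) in every tumor. Most of that sum was PMEL, at 8281 to 13440 CPM. The summed level of 9 lymphocyte markers was at most 2.21 CPM, with CD3D at 0 in all libraries. That of 10 myeloid markers was 24.7 to 51.2 CPM. Counts were made on the human build hg38, and the handling of mouse host reads was not given. For leukocyte, endothelial and fibroblast markers, reads of melanoma cells and reads of mouse host cells therefore cannot be told apart.

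Levels of different genes were compared as RPKM, CPM divided by the kilobases of merged exons. MCL1 and BCL2A1 were the most abundant members, at 38.6 ± 3.49 and 38.1 ± 19.6 RPKM (SD, n = 6). BCL2L1 followed at 15.1 ± 2.04, BAX at 11.7 ± 3.31 and BAK1 at 8.59 ± 1.39 RPKM. BCL2L11, PMAIP1, BMF, BBC3 and BCL2 lay lowest, at 4.68 ± 0.673, 3.505 ± 0.674, 3.42 ± 3.29, 2.92 ± 0.858 and 2.84 ± 0.669 RPKM. The means of MCL1 and BCL2A1 differed by less than the spread of BCL2A1, and BCL2A1 exceeded MCL1 only in the 2-library set. The means of BAX and BAK1 differed by less than the spread of BAX, and those of PMAIP1, BMF, BBC3 and BCL2 by less than the spread of BMF. BCL2L1 lay below MCL1 and BCL2A1, BAX below BCL2L1, and BCL2L11 below BAK1, in every library. Summed over the family, pro-survival members made up 68.5% to 82.5% of the RPKM of a tumor, effectors 8.08% to 19.99% and BH3-only members 9.37% to 14.5%. The pro-survival share was highest and the effector share lowest in untreated replicate 3. When the longest annotated transcript replaced merged exons as the length, BAX was at 22.3 and BCL2L1 at 19.1 RPKM, so the order of these 2 turns with the length used. The shares above also depend on the length. They hold for merged exons and were not computed with the longest transcript.

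**Figure D1:**
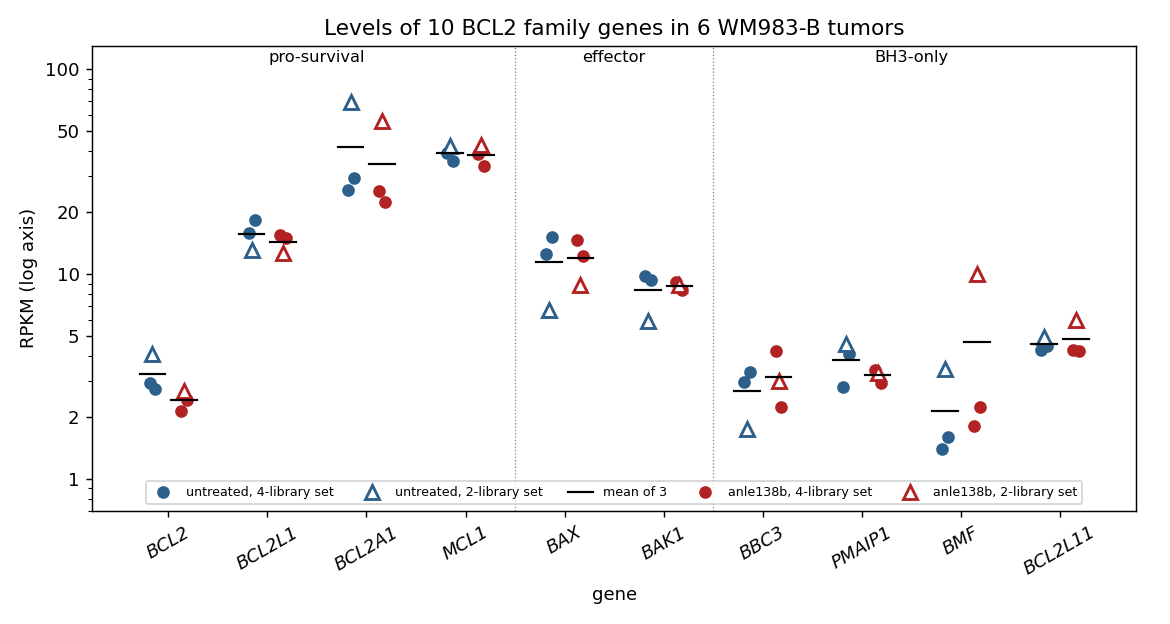
Level of each gene in each tumor (RPKM on a log axis, blue untreated, red anle138b). Filled circles are the 4-library set, open triangles the 2-library set, and bars the mean of 3. Groups overlap for every gene except BCL2, while triangles and circles stand apart for BCL2L1, BCL2A1, MCL1, BAX, BMF and BCL2L11.

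The treatment question is whether these genes differ between anle138b and untreated tumors. None of the 10 members passed the edgeR quasi-likelihood test after adjustment over all genes, where 1.05% of tested genes were called, 0.656% raised and 0.397% lowered. At an unadjusted p below 0.05 there were 3 members (BCL2, BCL2A1 and BMF), against 8.49% of all genes. DESeq2 called 1 member, BMF, and limma voom 0. Log2 fold changes of the 10, treated over untreated, ran from -0.42 for BCL2 to 0.88 for BMF with a median of 0.02, beside a median of -0.01 over all genes tested. All 4 pro-survival members had negative values, both effectors and 3 of 4 BH3-only members positive ones. Of the 20423 genes tested, 9788 had positive and 10635 negative values. The value of MCL1 was -0.03 ± 0.10. In the 4-library set alone BAX, BAK1 and BCL2L11 were negative, at -0.038, -0.13 and -0.035. Of 7 fibroblast markers 1, LUM, was called higher in treated tumors (0.70 ± 0.12, adjusted p = 0.0249, edgeR), at 201 to 230 CPM in treated and 113 to 154 CPM in untreated tumors. The summed level of the 7 was 364 to 568 CPM in treated and 305 to 353 CPM in untreated tumors. Without LUM, left out after its values were seen, the sums overlapped. They were 134, 169 and 345 CPM in treated and 200.3, 150.5 and 239.9 CPM in untreated replicates 1 to 3. COL1A1, DCN and ACTA2 had log2 fold changes of -0.02, -0.03 and -0.10, and COL1A2, PDGFRA and PDGFRB had 0.10, 0.30 and 0.19. The part of LUM in the differences of the members was not tested.

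BMF encodes a BH3-only protein that is held at the cytoskeleton by dynein light chains and binds pro-survival members when released. The gene lies at chr15:40087890-40108892 (GRCh38, minus strand). Its levels were 1.82, 2.26 and 9.97 RPKM in anle138b replicates 1 to 3 and 1.40, 1.605 and 3.44 RPKM in untreated replicates 1 to 3. The treated tumors of each set thus lay above the untreated tumors of that set, but untreated replicate 3 exceeded the treated replicates 1 and 2. The underlying counts were 130, 154 and 1535 against 125, 118 and 441. On the log2 scale BMF was higher by 0.88 ± 0.22 (SE, 3 tumors per group; edgeR adjusted p = 0.136), a 1.84-fold difference with a 95% interval of 0.38 to 1.38 on the log2 scale. It passed the test in 3 alternatives, namely DESeq2 (0.86, adjusted p = 0.0137), the table with no low-count filter (0.89, adjusted p = 6.01e-06) and the fit that left out anle138b replicate 2 (0.95, adjusted p = 0.0314). Over all 16 alternatives the adjusted p ran from 6.01e-06 to 1. In the 4-library set alone the log2 fold change was 0.45 (adjusted p = 0.585). Without anle138b replicate 3 it was 0.45 and without untreated replicate 3 it was 0.46. Each of these fits leaves 1 tumor in the 2-library set, which the set term takes up. They therefore repeat the 4-library estimate and add no separate support. With 0.88 in all tumors against 0.45 in the 4-library set, the size of the estimate rests on the 2-library set. In the antisense gene BMF-AS1, which shares 461 exon bases with BMF, 0 counts were seen in every library.

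BCL2, the founding pro-survival gene of the family, lies at chr18:63123346-63320128 on the minus strand. It stood at 2.14, 2.44 and 2.69 RPKM in anle138b replicates 1 to 3, against 2.94, 2.75 and 4.08 RPKM in untreated replicates 1 to 3. All treated tumors lay below all untreated ones, the only member for which the groups did not overlap. Of all tested genes, 8.5% did not overlap in this way, 4.47% with the treated tumors below and 4.03% with them above. The fitted difference was -0.42 ± 0.11 on the log2 scale (SE, 3 tumors per group; edgeR adjusted p = 0.176), 25.2% lower, with a 95% interval of -0.67 to -0.16. No alternative called it, with adjusted p from 0.0563 to 1 and log2 fold changes from -0.50 to -0.31.

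The other pro-survival genes had smaller differences. BCL2A1 (chr15:79960889-79971446, minus strand), which binds BH3-only proteins and BAK1, was at 25.4, 22.5 and 55.8 RPKM in treated and 25.8, 29.6 and 69.5 RPKM in untreated replicates 1 to 3. Within each set the treated tumors were the lower, and the difference was -0.25 ± 0.11 on the log2 scale (adjusted p = 0.563, edgeR). BCL2L1 (chr20:31664452-31723989, minus strand), whose long isoform is the pro-survival BCL-XL, had 15.5, 14.9 and 12.6 RPKM in treated and 15.8, 18.3 and 13.15 RPKM in untreated tumors, again lower within each set (log2 fold change -0.13 ± 0.10, adjusted p = 0.876). The counts do not separate its isoforms, and its exons share 1424 bases with the antisense gene ABALON, which had 30 to 96 counts per library. MCL1 (chr1:150574551-150579738, minus strand), a short-lived protein that restrains BAK1, was at 38.6, 33.7 and 42.5 RPKM in treated against 38.9, 35.7 and 42.3 RPKM in untreated tumors. Its 95% interval of -0.24 to 0.19 on the log2 scale was centred at -0.03, and the sign turned without anle138b replicate 2 or untreated replicate 1.

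Treated and untreated tumors of both sets were thus apart in the same direction for 4 members, BMF upward and BCL2, BCL2A1 and BCL2L1 downward. Of all tested genes 19.9% were apart in this way.

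The effectors overlapped between groups. BAX (chr19:48954815-48961798, plus strand), which moves from the cytosol to mitochondria to form pores, was at 14.7, 12.3 and 8.88 RPKM in treated and 12.5, 15.2 and 6.71 RPKM in untreated replicates 1 to 3. BAK1 (chr6:33572547-33580293, minus strand), its counterpart resident in the mitochondrial membrane, was at 9.16, 8.41 and 8.81 RPKM in treated and 9.83, 9.41 and 5.93 RPKM in untreated tumors. For both genes the lowest value was that of untreated replicate 3. Their log2 fold changes were 0.11 ± 0.14 and 0.11 ± 0.16 (adjusted p = 0.945 and 0.949, edgeR), with intervals of -0.20 to 0.42 and -0.24 to 0.47. In the 4-library set alone these values were -0.038 and -0.13, so their sign rests on the 2-library set. Without untreated replicate 3 they were -0.028 and -0.12, and without anle138b replicate 3 they were -0.038 and -0.13. As for BMF, these fits repeat the 4-library estimate.

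Among the remaining BH3-only genes, BBC3 (PUMA, a p53 target that binds every pro-survival member; chr19:47220822-47232766, minus strand) was at 4.21, 2.24 and 3.00 RPKM in treated and 2.97, 3.33 and 1.75 RPKM in untreated tumors. These values overlapped, with a log2 fold change of 0.29 ± 0.25 (adjusted p = 0.893, edgeR). It was 0.035 in the 4-library set alone. The fits without anle138b replicate 3 (0.039) or untreated replicate 3 (0.046) repeat that estimate. PMAIP1 (NOXA, which binds MCL1 and BCL2A1; chr18:59899948-59904306, plus strand) was at 3.39, 2.93 and 3.29 RPKM in treated against 2.81, 4.08 and 4.54 RPKM in untreated tumors, a log2 fold change of -0.25 ± 0.19 (adjusted p = 0.873). BCL2L11 (BIM, a target of FOXO factors whose protein is degraded after ERK phosphorylation; chr2:111119378-111168447, plus strand) was at 4.26, 4.24 and 5.95 RPKM in treated and 4.27, 4.44 and 4.92 RPKM in untreated tumors. Its log2 fold change was 0.07 ± 0.11 (adjusted p = 0.954, edgeR), and -0.035 in the 4-library set alone. Here too the fits without anle138b replicate 3 (-0.035) or untreated replicate 3 (-0.025) repeat the 4-library estimate. BCL2L11 shares 727 exon bases with MIR4435-2HG on the opposite strand, which had 751 to 1511 counts per library. The library kit does not mark strand, so reads of such pairs cannot be told apart.

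**Figure D2:**
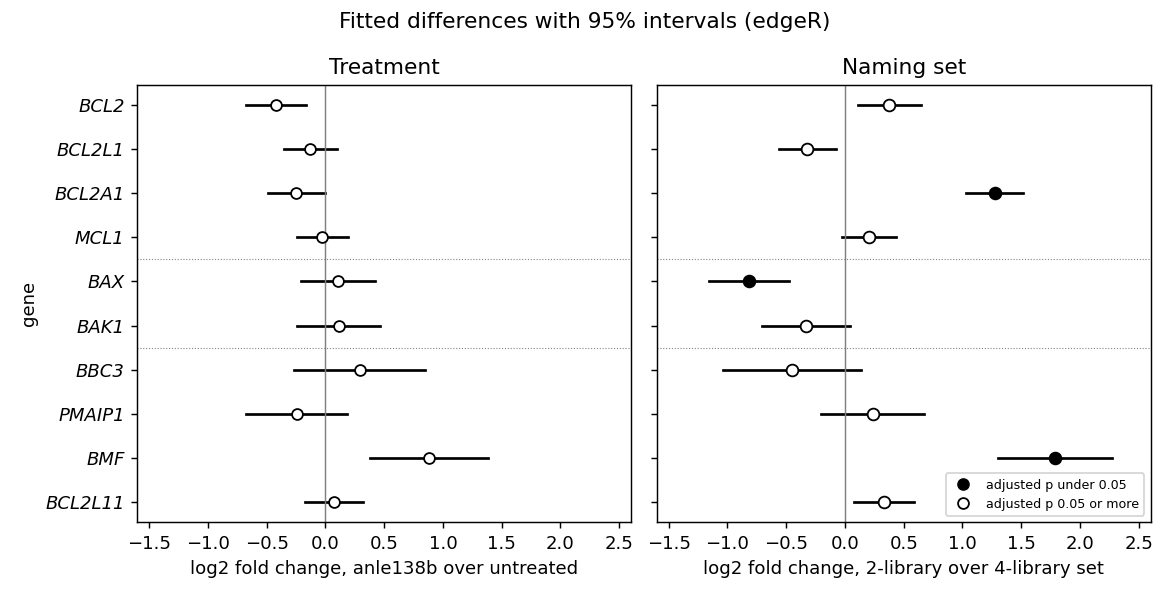
Fitted log2 fold changes with 95% intervals from edgeR (n = 6 tumors), for treatment on the left and for naming set on the right. Filled points passed the adjusted threshold of 0.05. On the left no point is filled, with BMF at 0.88 and BCL2 at -0.42 farthest from 0. On the right BCL2A1, BAX and BMF are filled.

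Ratios of members within a tumor are free of the scaling between libraries and were taken per length. BCL2 to BAX was 0.146, 0.199 and 0.303 in treated and 0.235, 0.181 and 0.609 in untreated replicates 1 to 3, so the groups overlapped. BCL2 to BCL2L11 was 0.502, 0.576 and 0.452 in treated and 0.690, 0.620 and 0.829 in untreated tumors, without overlap, as for BCL2 itself. MCL1 to BCL2 was also without overlap, at 18.1, 13.8 and 15.8 against 13.2, 12.97 and 10.4. BCL2L1 to BCL2 and BCL2A1 to BCL2 overlapped. How often ratios of other gene pairs are without overlap was not counted. MCL1 to PMAIP1 was 11.4, 11.5 and 12.9 against 13.9, 8.75 and 9.32, with overlap. BCL2A1 to BAX was 1.73 to 2.06 in the 4-library set, and 6.29 and 10.4 in the treated and untreated tumor of the 2-library set. No test was applied to ratios.

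The difference between the naming sets was tested in the same fit. Its estimate was larger in size than that of treatment for every member except BCL2 and PMAIP1. The set test called 3 of the 10 members, where 15.5% of all genes were called, 8.32% higher and 7.14% lower in the 2-library set. BMF was 3.45-fold higher in the 2-library set (log2 fold change 1.79 ± 0.22 SE, adjusted p = 0.0008, edgeR, 2 against 4 tumors). BCL2A1 was 2.42-fold higher (1.27 ± 0.11, adjusted p = 9.67e-05). BAX was lower at 0.569 of the 4-library level (-0.81 ± 0.15, adjusted p = 0.00817). For these 3 genes no tumor of one set lay within the range of the other. The same held for BCL2L1, MCL1 and BCL2L11, which were not called in this fit (adjusted p = 0.0726, 0.195 and 0.0759), and 38.3% of all tested genes were without overlap between the sets. Each of the 3 calls was also made with every library thinned to the lowest total count, an alternative chosen after the data were seen. Without untreated replicate 3 BAX changed to -0.59 (adjusted p = 0.0974) and was no longer called, and the 2-library set was then 1 tumor. BCL2 was called in 5 of 14 alternatives (adjusted p from 0.0173 to 0.482, value 0.38 ± 0.12) and BCL2L11 in 3 of 14. Without anle138b replicate 2 BCL2L1 (-0.36, adjusted p = 0.0408) and BBC3 (-0.70, adjusted p = 0.00971) were called, and without anle138b replicate 3 BAK1 was (-0.70, adjusted p = 0.0339).

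BCL2A1 is also a gene of leukocytes, so their markers are given beside it. The 10 myeloid markers summed to 41.2 to 51.2 CPM in the 2-library set and 24.7 to 46.0 CPM in the 4-library set. Of the 5 that were tested, 1 was called, ITGAM, which was higher in the 2-library set (1.09 ± 0.30, adjusted p = 0.039, edgeR) at 1.66 and 1.74 CPM against 0.559 to 1.10 CPM. PTPRC, the pan-leukocyte gene, had a set log2 fold change of -0.07 ± 0.19 (adjusted p = 0.839, edgeR). MITF was at 969 to 1249 CPM in the 4-library set, and at 954 and 1158 CPM in the 2-library set (-0.13 ± 0.15, adjusted p = 0.593). Genes used as markers of other cells also differed between the sets. As for the leukocyte markers, whether their reads came from melanoma cells or from the mouse host cannot be told. The endothelial gene KDR (2.20, adjusted p = 0.000259, edgeR) and the fibroblast genes COL1A1 (0.81, adjusted p = 0.0123) and COL1A2 (0.95, adjusted p = 0.0316) were higher in the 2-library set. The 6 endothelial markers summed to 15.9 to 19.1 CPM there and 8.22 to 11.4 CPM in the 4-library set. KDR alone was at 13.98 and 9.885 CPM in the 2-library set against 1.481 to 4.073 CPM in the 4-library set. The other tested endothelial genes, CDH5, CLDN5, TEK and VWF, went the other way at -1.16, -0.73, -0.46 and -0.14, none called. The 7 fibroblast markers summed to 353 to 568 CPM in the 2-library set and 305 to 370 CPM in the 4-library set. Of the 9 melanoma markers TYRP1 (1.73, adjusted p = 0.00616), S100B (0.86, adjusted p = 0.00328) and MLANA (0.47, adjusted p = 0.0275) were higher. PMEL, S100A1, SOX10 and MITF went the other way at -0.49, -0.47, -0.17 and -0.13, none called. TYR and DCT were at 0.31 and 0.10, also not called. The sum was 14000 to 15600 CPM in the 2-library set and 15500 to 19000 CPM in the 4-library set. Most of it was PMEL, at 9132 and 8281 CPM in the 2-library set and 9582 to 13440 CPM in the 4-library set. The part of any of these markers in the set differences of BCL2A1, BMF and BAX was not tested. In bulk tumors a different mix of cells and a different RNA level per cell cannot be told apart.

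Promoter sequence is shown for BCL2A1 and BAX because both differed between the sets and both hold an E-box, the hexamer bound by MITF, MYC and related factors. The 250 bases before the RefSeq start site (GRCh38.p14) were searched on both strands for CACGTG and CATGTG (E-boxes, the latter the form in the MITF M-box), GTAAACA (FOXO), TGANTCA (AP-1) and ACGTCA (the core of the cAMP response element). These motifs occur in 6.34%, 9.42%, 2.98%, 6.57% and 7.1% of 35116 promoter windows of that length. Windows were present for 9 of the 10 members. MCL1 had no entry. Capitals mark the motif, with 10 bases on each side, and the position is counted from the first base of the motif to the start site. The RefSeq start of both genes lies inside the GENCODE gene whose coordinates are given above, so the BCL2A1 stretch and the last 2 BAX stretches are within the gene as annotated there.
BCL2A1, 25 bases before the start, chr15:79971206-79971231, minus strand: catgtatcatCATGTGtcataactca
BAX, 138 bases before, chr19:48954727-48954752, plus strand: attggacagtCACGTGacgggaccaa
BAX, 93 bases before, chr19:48954772-48954797, plus strand: caggtgcggtCACGTGacccggcggc
BAX, 45 bases before, chr19:48954820-48954845, plus strand: gcggggcggcCACGTGaaggacgcac
BAX, 14 bases before, chr19:48954851-48954876, plus strand: gcggggctctCACGTGacccgggcgc
BAX thus held 4 copies of CACGTG, and BCL2A1 held 1 CATGTG and 0 CACGTG. Both windows of BMF, which also differed between the sets, held 0 matches to the 5 motifs, as did those of BCL2, BCL2L1 and BAK1. BBC3 held 1 CACGTG and 1 TGANTCA and was not called between the sets (adjusted p = 0.271, edgeR). PMAIP1 held 1 ACGTCA and BCL2L11 held 1 GTAAACA. The part of the motifs in the set differences was not tested. A match describes letters in the window, not binding.

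Whether the treatment difference itself differed between the sets was tested by the interaction of the 2 terms, with 2 residual degrees of freedom and 1 tumor per group in the 2-library set. No member passed (0 of 10 by edgeR, 0 by DESeq2 and 0 by limma voom, where edgeR called 0% of all genes), and 2 members, BMF and BAK1, were at an unadjusted p below 0.05, against 6.59% of all genes. The treated minus untreated difference in mean log2 CPM was 0.43 in the 4-library set and 1.53 in the 2-library set for BMF (interaction adjusted p = 0.595, edgeR). The corresponding values were -0.32 and -0.60 for BCL2, -0.03 and 0.77 for BBC3, and -0.13 and 0.57 for BAK1. They were -0.04 and 0.40 for BAX and -0.04 and 0.27 for BCL2L11. PMAIP1 had -0.10 and -0.46. For BBC3 the 4-library value was near 0 and its sign turned with the measure, being 0.035 in the fit to that set. The 2-library values compare 1 tumor with untreated replicate 3, which had the lowest BAX, BAK1 and BBC3 levels and the lowest miscellaneous RNA and highest mitochondrial share of all libraries. The part of these shares in the differences was not tested.

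**Figure D3:**
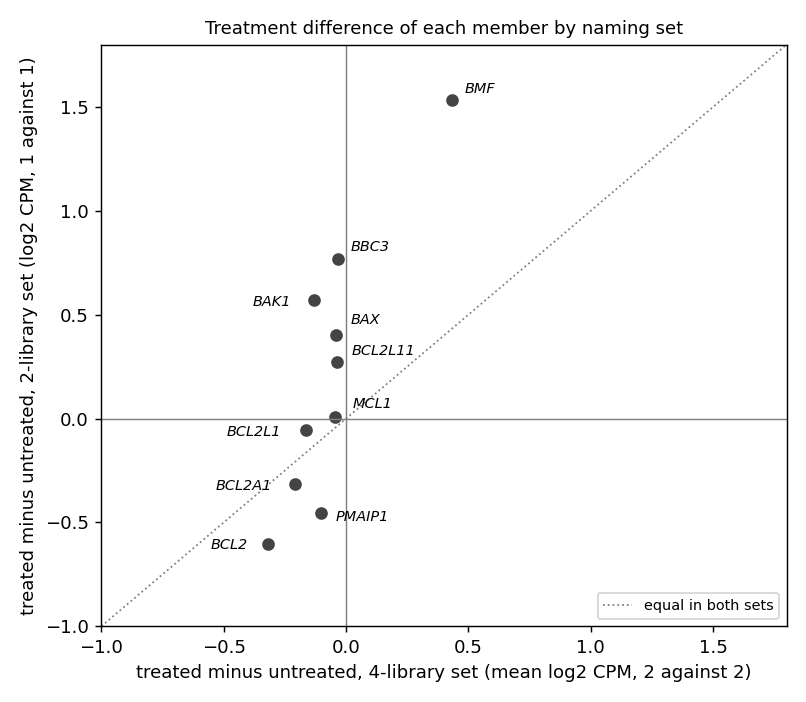
Treated minus untreated difference of each member in log2 CPM, in the 4-library set (horizontal, 2 against 2 tumors) and in the 2-library set (vertical, 1 against 1). The dotted line marks equal differences. BMF is positive and BCL2 negative on both axes. BBC3, BAK1, BAX, BCL2L11 and, by 0.005, MCL1 are above 0 on the vertical axis only.

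Genes around the family were read from 7 lists with 97 genes, of which 91 were tested. None passed the edgeR test over all genes (1.05% of all genes did), 5 of 91 were at an unadjusted p below 0.05 (8.49% of all genes were), DESeq2 called 1 and limma voom 0. The median log2 fold change over these lists was 0.01. Other BCL2 family genes (13 of 14 tested, median -0.04) had their smallest p at the neuronal BH3-only gene HRK (-0.34 ± 0.16), the BAX-like BOK (-0.66 ± 0.31) and the autophagy gene BECN1 (0.20 ± 0.10). Of the caspases and apoptosome genes (16 tested, median 0.02), CASP9, the initiator caspase of the mitochondrial route, stood at -0.27 ± 0.14 and AIFM1 at 0.22 ± 0.13. The inhibitor of apoptosis genes (6 of 7 tested, median 0.07) were within 0.16 of 0, with the smallest p for BIRC6 at 0.11 ± 0.10 and BIRC2 at 0.09 ± 0.11 and BIRC7 at -0.16 ± 0.21.

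Death receptor genes (11 of 14 tested, median -0.03) included RIPK1 at 0.15 ± 0.09, FADD at -0.37 ± 0.28 and CASP8 at -0.12 ± 0.11. Among 14 transcription factors known to act on family genes (median -0.05), JUN was at -0.30 ± 0.13, MYC at -0.12 ± 0.09 and DDIT3 at -0.13 ± 0.14, and JUN and MYC were lower in every treated than in any untreated tumor, as were 4.47% of all tested genes. Of the 91 tested genes of the 7 lists, 7 lay above and 3 below without overlap, where 4.03% and 4.47% of all tested genes did. Genes for turnover of family proteins (12 tested, median 0.04) lay within 0.12 of 0, among them DYNLL1 and DYNLL2, the dynein light chains that tether BMF and BCL2L11, at -0.12 ± 0.11 and 0.12 ± 0.09, and the phosphatase gene PPP2CA at 0.10 ± 0.09. The signs of BIRC2, BIRC7 and CASP8 were not the same in all alternatives.

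The p53 targets outside the family (19 of 20 tested, median 0.08) had 0 called and 5 at an unadjusted p below 0.05, where 8.49% of all genes were, and 4 lay above without overlap, as 4.03% of all genes did. PHLDA3, a p53 target that restrains AKT at the membrane, was at 79.1, 59.9 and 88.35 CPM in treated and 48.3, 50.3 and 42.0 CPM in untreated replicates 1 to 3. The treated tumors all lay above the untreated ones, with a log2 fold change of 0.69 ± 0.15 (adjusted p = 0.0696, edgeR). It was called in 5 of 16 alternatives, among them DESeq2 (adjusted p = 0.00206), upper-quartile scaling (0.0316), library size alone (0.0347) and no low-count filter (2.13e-06). The fit that left out anle138b replicate 2 also called it (0.85, adjusted p = 0.000894). It had 0.49 (adjusted p = 0.264) in the 4-library set alone. CCNG1 and the cell cycle inhibitor gene CDKN1A were also higher in every treated tumor, at 0.37 ± 0.10 and 0.44 ± 0.15 (adjusted p = 0.19 and 0.369), and CCNG1 was called without the low-count filter (adjusted p = 0.0417). ZMAT3 had 0.29 ± 0.12 and TP53I3 -0.33 ± 0.14. MDM2, a ubiquitin ligase gene, was at -0.11 ± 0.09. ZMAT3, TP53I3 and MDM2 were named after their values were seen.

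**Figure D4:**
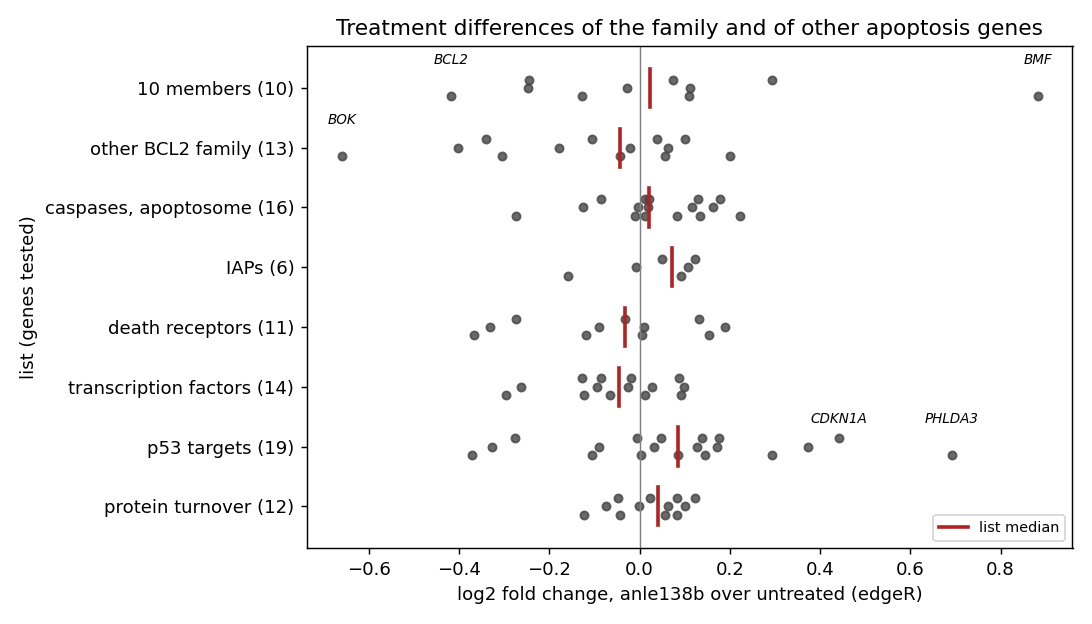
Log2 fold change of every tested gene (points) in the 10 members and in the 7 further lists, treated over untreated from edgeR, with the median of each list as a red bar. List medians lie between -0.05 and 0.08, and the points farthest from 0 are BMF at 0.88, PHLDA3 at 0.69 and BOK at -0.66.

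The genes with the most similar profile were sought for the members with the smallest treatment p and the smallest set p. Likeness was the Euclidean distance between log2 CPM profiles over 6 libraries, each centred on its own mean, among 15512 genes that were no members and had an average log2 CPM of at least 1. For BMF the nearest were ITIH6, SCIN and MGAM (distances 0.567, 0.644 and 0.646, median of all genes 2.40). Their set log2 fold changes of 1.77, 1.82 and 1.82 lay near the 1.79 of BMF, and their treatment values were 0.49, 0.46 and 0.75, none called. For BCL2A1 the nearest were C12orf75, FHDC1 and SNHG14 (distances 0.224, 0.253 and 0.262, median 1.605), with set values of 1.40, 1.22 and 1.22 and treatment values of -0.21, -0.20 and -0.24. The neighbours were picked on these same 6 libraries. Set values near those of BMF and BCL2A1 therefore follow from the choice and are no separate result.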

How the data were processed

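Each tumor has 1 file of raw gene counts, as deposited by the authors. Per the submitters' processing notes, bcl2fastq 2.17.1.14, STAR 2.5.2a, featureCounts 1.5.0-p1 and build hg38 were named. The sources used here give no annotation release, strand setting or handling of multiply mapped and mouse reads. Per the labels' protocols, RNA was taken up in Trizol and prepared with a TruSeq v2 kit, a kit that does not mark strand. No replicate pair agreed within sampling noise (chi-square per degree of freedom 10.5 to 58.8). A count of 0 allows up to 0.109 to 0.242 CPM (3 counts, counting error only).

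Counts were tested with edgeR 4.0.16 (R 4.3.3; filterByExpr with minimum count 10 and total 15, TMM, quasi-likelihood F test, terms for naming set and treatment, 3 residual degrees of freedom, Benjamini-Hochberg over all 20423 genes at 0.05). Standard errors derive from the F statistic, and 95% intervals use the fit's total degrees of freedom. CPM are counts scaled by the TMM-adjusted library size. Log2 CPM used a prior count of 2. Exon lengths, positions and overlaps came from GENCODE 29 (GRCh38), with 58542 identifiers matched. The scripts were tested on simulated data. Alternatives were no set term, the 4-library set alone, 3 other scalings, 2 other filters, DESeq2 1.42.0, limma 3.58.1 voom, each library left out and thinned counts. Named genes were every member, called genes or the 3 smallest p of each further list, and the 3 nearest profiles, except that some listed genes are not reported here. Members and lists were chosen with earlier results of these data known.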

Additional observations from a re-analysis of the deposited data

Results flagged for a closer look

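BAK1 and BCL2L11 had treatment differences of opposite sign in the naming sets. Both treated tumors of the 4-library set lay below both untreated tumors, and the treated tumor of the 2-library set lay above its untreated counterpart. For BAK1 the differences in log2 CPM were -0.13 and 0.57, and the fitted interaction was 0.70 ± 0.24 (SE; adjusted p = 0.72, edgeR). For BCL2L11 they were -0.04 and 0.27, with an interaction of 0.31 ± 0.21 (adjusted p = 0.808, edgeR). Its 4-library levels were barely apart, at 28.37 and 28.19 CPM in treated and 28.44 and 29.56 CPM in untreated tumors. The share of all genes with this pattern was not counted. Neither interaction passed the test, and the 2-library set has 1 tumor per group. Groups of 3 were not searched for outlying tumors.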

How the results depend on the processing

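Depth and 3 tumors per group limit all comparisons, and the 2-library set adds 1 tumor per group. No paired analysis was possible because the labels give no replicate numbers, and those used here only name the tumors. Over all genes the treatment fit called 215, against 9 without the set term (9 raised, 0 lowered), 92 in the 4-library set alone, 754 without the filter, 412 by DESeq2 and 89 to 392 with a library left out. Members raised were 1 (BMF) without the filter and by DESeq2, and 0 to 1 with a library left out. Members lowered were 0 throughout. Further listed genes called were 1 with upper-quartile scaling, library size alone or DESeq2, 2 without the filter and 0 to 1 with a library left out. The set fit called 3157 genes, 6250 without the filter and 993 to 5960 with a library left out. With library size alone 64.4% of set calls were higher in the 2-library set, against 53.8%. Members higher in the 2-library set were 4, not 2, with upper-quartile scaling, library size alone or the filter of 50 counts in 3 libraries (BCL2 and BCL2L11 added), and 2 to 3 with a library left out. Members lower were 0 to 3 with a library left out, the 3 (BAX, BCL2L1, BBC3) without anle138b replicate 2. The interaction called 0 genes, 1 with upper-quartile scaling, 11 with library size alone, 262 without the filter, 31 by DESeq2 and 24 to 436 with a library left out, and 1 member (BMF, adjusted p = 0.0372) without the filter.

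In the 4-library set alone the sign turned for BAX (-0.038), BAK1 (-0.13), BCL2L11 (-0.035), BIRC2 (-0.0062) and CASP8 (0.018). With a library left out the ranges crossed 0 for BAX (-0.038 to 0.232), BAK1 (-0.13 to 0.224), BCL2L11 (-0.035 to 0.117), MCL1 (-0.083 to 0.043), BIRC2 (-0.0052 to 0.197), BIRC7 (-0.391 to 0.074) and CASP8 (-0.181 to 0.028), and for the set difference of BAK1 (-0.698 to 0.019). Treatment fits without a replicate 3 repeat the 4-library estimate, so for BAX, BAK1 and BCL2L11 the crossing is no separate result. By longest transcript, levels were 4.48 RPKM for BCL2, 19.1 for BCL2L1, 42.9 for MCL1, 22.3 for BAX, 5.04 for BBC3 and 5.96 for BCL2L11. Except for the length, whose shorter denominator raises each level, the cause of these changes was not tested.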

Other observations

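Between the naming sets 18 of the 91 further listed genes differed, 13 higher and 5 lower in the 2-library set, where 15.5% of all tested genes were called by edgeR. Among other family genes BID, the BH3-only protein cleaved by caspase 8, was 1.71-fold higher (log2 fold change 0.78 ± 0.14 SE, adjusted p = 0.00621, 2 against 4 tumors), and HRK 1.88-fold higher (0.91 ± 0.16, adjusted p = 0.00563). BNIP3, a hypoxia-induced gene of mitophagy, was lower (-1.04 ± 0.25, adjusted p = 0.0248). FAS, the death receptor, was higher (0.95 ± 0.21, adjusted p = 0.0175) and TNFRSF10B, a TRAIL receptor, lower (-0.54 ± 0.13, adjusted p = 0.0221). Of 19 p53 targets 6 were higher and 0 lower, with TP53I3 at 1.16 ± 0.14 (adjusted p = 0.000784) and MDM2 at 0.42 ± 0.09 (adjusted p = 0.0162). These genes were named after their values were seen.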
